A study of Mus musculus with 6 samples.

Results

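The 31 genes described here encode the ATF4 arm of the integrated stress response and the serine and folate enzymes that it feeds, measured in mouse induced regulatory T cells (iTregs) by bulk RNA sequencing. They were chosen by symbol, as 31 of the 21899 genes listed, and all 31 had enough counts to be among the 12768 genes tested. The study compared 3 KO samples with 3 WT samples. KO cells carried the genotype Dlst-Treg iKO, an inducible loss of Dlst directed at Treg cells, and WT cells the genotype iWT. The product of Dlst is a core subunit of 2-oxoglutarate dehydrogenase, which makes succinyl-CoA in the TCA cycle of mitochondria. In both groups CD4+ T cells of the spleen were kept for 2 days under Treg-polarising conditions with 4-hydroxytamoxifen, the drug that switches on an inducible Cre. Cells carrying CD4, the FoxP3-GFP reporter and tdTomato-RFP were then sorted from both. The age and number of the mice, and the promoter that drives the Cre, were not given in the sources used here. The labels do not say whether replicates came from different animals or cultures. The p-values below therefore set each difference against the spread over 3 samples a group. Some of that spread may be technical, and it need not hold the variation between animals.

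ATF4 is a bZIP transcription factor made when the translation factor eIF2 is phosphorylated, by PERK (Eif2ak3) in endoplasmic reticulum stress, by GCN2 (Eif2ak4) in amino acid shortage, or by other kinases. It induces genes for amino acid import and synthesis, for serine and one-carbon metabolism, and for feedback on translation. Mitochondrial dysfunction is a known trigger of this response in mammalian cells, and proliferating T cells draw on serine-derived one-carbon units for nucleotide synthesis. ATF4 is controlled to a large degree by translation, and no protein was measured here.

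ATF4 binds with C/EBP partners at a composite element, and short promoter stretches that hold its letters are shown. RefSeq promoter windows (GRCm38.p6) were found for 27 of the 31 members. The 250 bases before each start were searched on both strands for TGATGNAA. A match was found in 6 of the 27 members (22.2%) and in 3.91% of all 27025 genes with a window. The members were chosen as genes of this response, so these shares are a description only. Each line gives 30 bases, 5′ to 3′ on the gene's strand, with the matched letters in capitals.
Slc7a11, chr3:50443651-50443680, minus strand: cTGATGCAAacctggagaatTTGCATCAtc
Asns, chr6:7693214-7693243, minus strand: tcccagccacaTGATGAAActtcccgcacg
Chac1, chr2:119351038-119351067, plus strand: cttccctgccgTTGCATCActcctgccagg
Atf3, chr1:191183425-191183454, minus strand: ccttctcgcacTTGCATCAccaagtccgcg
Vldlr, chr19:27216809-27216838, plus strand: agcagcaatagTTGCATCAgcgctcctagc
Pck2, chr14:55540152-55540181, plus strand: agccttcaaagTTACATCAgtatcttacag
Slc7a11 was the member with 2 matches, which lie on opposite strands, 58 and 39 bases before the RefSeq start. The Asns match lies 15 bases before the RefSeq start and the Pck2 match 95. By GENCODE M21, the searched bases of Slc7a11, Asns, Chac1, Atf3 and Vldlr overlap annotated exons, and those of Pck2 do not. The printed Asns, Atf3 and Vldlr stretches lie within the annotated span of their own gene, so not all are upstream of it. TGACNNNGC, the core of the antioxidant response element that NRF2 recognises, matched in Asns, Phgdh, Sesn2 and Slc7a1, 14.8% of members with a window against 11.5% of all genes with one. These matches describe letters in a window, not binding.

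Libraries held 33590510 to 49772670 estimated counts in KO and 35647816 to 47526481 in WT. Dlst itself was at 125, 129 and 129 CPM (counts scaled to library size, comparable between samples but not between genes) in KO replicates 1 to 3, against 161, 149 and 149 CPM in WT replicates 1 to 3. Its groups did not overlap, and its log2 fold change was -0.26 (SE 0.05, edgeR adjusted p = 0.0894). DESeq2, a second count test, gave -0.26 (adjusted p = 0.00182). Leaving out KO replicate 1 and WT replicate 1 together gave -0.21 (edgeR adjusted p = 0.0323). Under the other alternative settings the adjusted p of Dlst was above 0.05. The level of the deleted exons alone was not analysed here. The 7 T cell and Treg markers, Foxp3 among them, were found in every library and summed to 3286 to 3648 CPM in KO and 3399 to 3842 CPM in WT. Foxp3 had 231, 207 and 227 CPM in KO, against 154, 202 and 198 CPM in WT. Its log2 fold change was 0.26 (edgeR adjusted p = 0.305), or 0.15 without WT replicate 1, the lowest sample. Of the 7 markers, 1 (Foxp3) was higher and 2 (Cd4 and Cd3d) were lower in every KO sample than in every WT sample. The log2 fold change was -0.19 for Cd4 (edgeR adjusted p = 0.151) and -0.08 for Cd3d. Those of Cd3e, Cd3g, Il2ra and Ctla4 lay from -0.08 to -0.01. KO replicate 1 stood apart: it had 80.8 CPM of the Y-linked gene Ddx3y, against 0 and 0.0257 CPM in KO replicates 2 and 3 and 0 in all WT samples. The Y-linked genes Eif2s3y, Uty and Kdm5d were at 82.4, 28.2 and 61.8 CPM there, and at 1.22 CPM or less in each other library. The labels give no sex, but these values place mRNA of male cells in KO replicate 1. The part of sex in the KO minus WT values was not tested. KO replicate 1 also held the most myeloid mRNA. The 9 macrophage and monocyte markers summed to 375 CPM in KO replicate 1, 98.6 and 109.9 CPM in KO replicates 2 and 3, and 20.0 to 30.9 CPM in WT. The 8 neutrophil markers summed to 294, 72.8 and 71.3 CPM in KO and to 4.61 to 30.8 CPM in WT. Of these 2 lists 7 of 9 and 7 of 8 genes were higher in every KO sample than in every WT sample, and 2 and 3 genes were at 0 in a WT sample. WT replicate 1 held the most B cell mRNA, with a sum over 5 markers of 28.2 to 29.8 CPM in KO, against 91.4 CPM in WT replicate 1 and 29.1 and 14.0 CPM in WT replicates 2 and 3. CD8 and NK markers summed to 131 to 159 CPM in KO and 87.3 to 135 CPM in WT. Of these 5 genes, 2 (Cd8a and Cd8b1) were higher in every KO sample than in every WT sample. Mast cell and basophil markers summed to 2.79 to 5.41 CPM in KO and 0.667 to 1.98 CPM in WT. Of these 3 genes, 2 (Prss34 and Mcpt8) were higher in every KO sample. In bulk RNA, a change in the number of cells of a type and in the RNA per cell cannot be told apart. Values without KO replicate 1 or WT replicate 1 are given below for the differences that lean on them, and the plot of fold changes with and without 1 library shows them for all members.

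All 31 mRNAs were detected, and most were abundant. On the TPM scale, which allows for gene length, 8 members averaged above 100 TPM over the 6 samples, 19 lay between 10 and 100 TPM, and 4 were under 10 TPM. The members together summed to 2590.1, 2829 and 2780.1 TPM in KO replicates 1 to 3, against 2929, 2856 and 2881 TPM in WT replicates 1 to 3. All KO sums lay below all WT sums, with KO replicate 1 the lowest and KO replicate 2 close to WT replicate 2. For single genes, 10.9% of all tested genes had every KO sample below every WT sample in CPM. The means of the sums were 2733 ± 126 TPM in KO and 2888 ± 37.0 TPM in WT (SD, n = 3 each). The 2 largest shares came from the enzymes. Serine synthesis genes with Pck2 summed to 798 ± 34.5 TPM in KO and 824 ± 35.9 TPM in WT, and folate genes to 706 ± 39.7 TPM in KO and 761 ± 74.3 TPM in WT. The highest single mRNA was Phgdh, which encodes the first enzyme of serine synthesis from glycolysis. The next were Atf4, the mitochondrial serine hydroxymethyltransferase Shmt2, and Psat1, the second serine synthesis enzyme. Their means over all samples were 416 TPM for Phgdh, 364 TPM for Atf4, 319 TPM for Shmt2 and 230.3 TPM for Psat1. The lowest were Vldlr at 0.603 TPM, Slc7a11 at 1.58 TPM, Stc2 at 2.01 TPM and Aldh1l2 at 2.77 TPM. The stress gene Ddit3, which encodes CHOP, stood at 45.9 TPM, and Chac1, a glutathione-degrading enzyme, at 19.3 TPM.

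**Figure D1:**
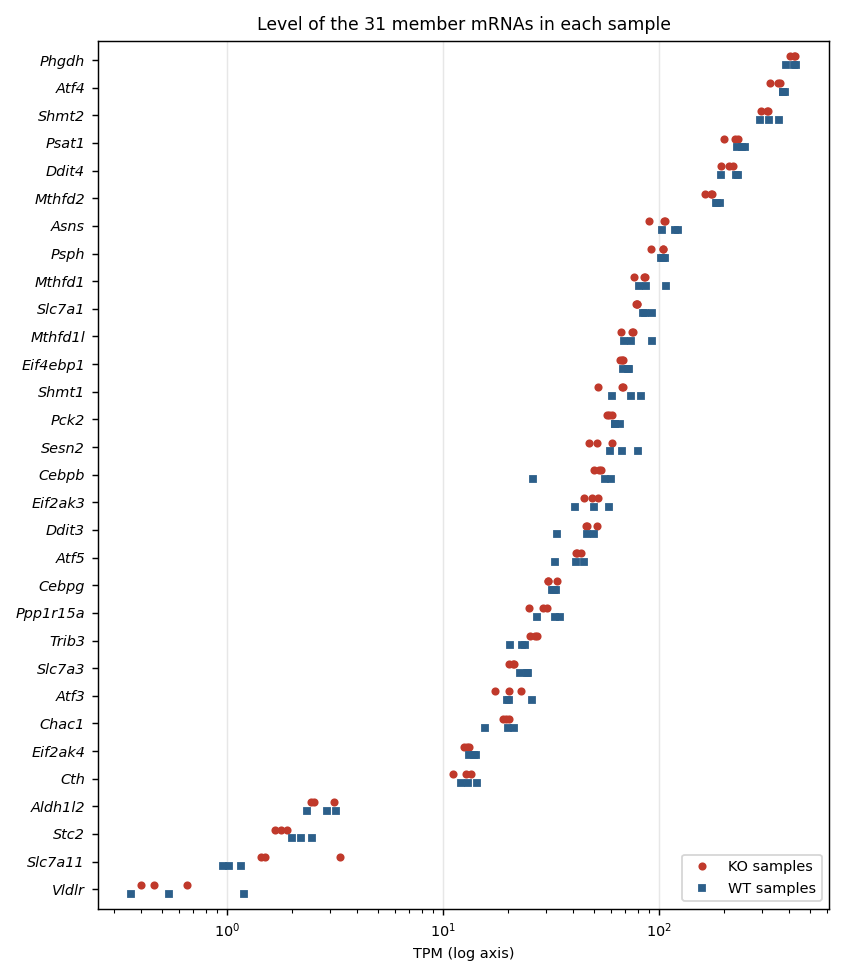
TPM (log axis) of the 31 members in each of the 3 KO samples (red circles) and 3 WT samples (blue squares), ordered by the mean over the 6 samples. Phgdh (416 TPM) is at the top and Vldlr (0.603 TPM) at the bottom, and for most members the KO and WT points fall on each other.

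No member passed the test between KO and WT. With edgeR's quasi-likelihood test and a Benjamini-Hochberg adjusted p under 0.05 over all genes, 0 of 31 members were higher and 0 of 31 lower in KO. Among all tested genes 0.454% were called higher and 0.219% lower, 0.674% in either direction, so the absence of calls lies close to the background and is no result about the members by itself. At an unadjusted p under 0.05 there were 5 members (16.1%), against 15.1% of all tested genes. The 5 were Slc7a11 and Trib3, with higher means in KO, and Sesn2, Slc7a3 and Slc7a1, with lower means. The smallest adjusted p of a member was 0.185, for Slc7a3. DESeq2, the other count test, called 1 member, Slc7a11, beside 3.84% of all genes to which it gave an adjusted p.

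The member fold changes were small and leaned below 0. Log2 fold changes (KO minus WT) were below 0 for 23 members and above 0 for 8, against 50.9% of all tested genes below 0. Their median was -0.08, beside -0.003 over all tested genes. Leaving out KO replicate 1 gave a median of -0.05, leaving out WT replicate 1 gave -0.10, and leaving out both gave -0.06. For 29 of the 31 members the 95% interval lay within 1 log2 unit of 0, a 2-fold change, and for 26 within 0.5. Vldlr, with an interval from -1.27 to 0.39, and Slc7a11, from 0.25 to 1.67, were the exceptions at 2-fold. In 9 members the KO and WT samples did not overlap (29.0%), against 22.8% of all tested genes. Of these, 2 had every KO sample above every WT sample (6.45%, against 11.9% of all tested genes), and 7 had every KO sample below (22.6%, against 10.9%).

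**Figure D2:**
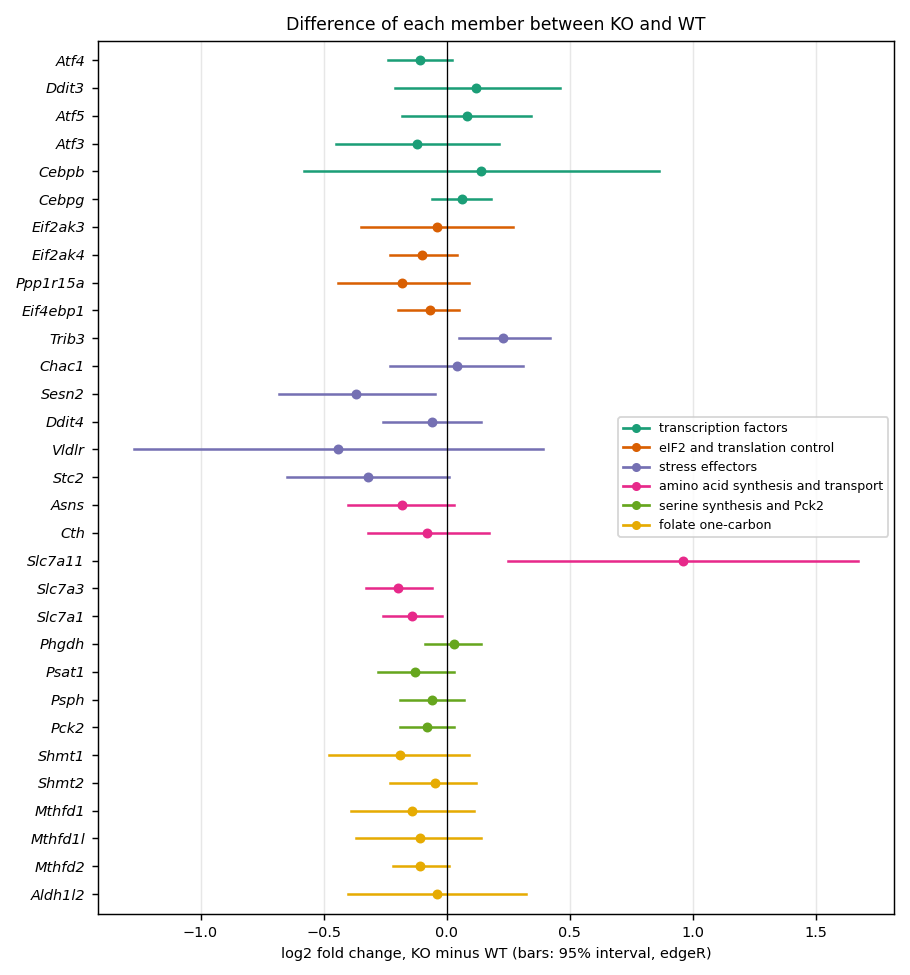
Log2 fold change of each member, KO minus WT, as points with 95% intervals from edgeR, coloured by role. Intervals of 26 members stay within 0.5 of 0, and Slc7a11 (0.96) lies farthest to the right.

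Among the 6 transcription factor genes the median log2 fold change was 0.07, and without WT replicate 1 it was -0.09, so its sign rested on that library. Atf4 was at 326, 362 and 354 CPM in KO replicates 1 to 3, against 369, 385 and 371 CPM in WT replicates 1 to 3. Every KO value lay below every WT value, with KO replicate 1 the lowest. Atf4 lies on chromosome 15 at 80255184 to 80257541 (plus strand). The Atf4 log2 fold change was -0.11 (SE 0.06, 95% interval -0.24 to 0.02, edgeR adjusted p = 0.401), and it stayed between -0.14 and -0.07 under all 17 alternative settings, with -0.07 reached without KO replicate 1. Cebpb, a C/EBP factor that can dimerise with ATF4, had 46.7, 45.9 and 43.6 CPM in KO, against 22.5, 52.7 and 48.2 CPM in WT. WT replicate 1 alone was low, so the log2 fold change of 0.14 (SE 0.30) became -0.15 without it. Ddit3, induced by ATF4 in prolonged stress, had 26.3, 23.0 and 23.5 CPM in KO, against 17.2, 26.0 and 23.5 CPM in WT. It was lowest in WT replicate 1 too, and its log2 fold change was 0.12 (SE 0.14), or -0.03 without that sample. Atf5, a related factor linked to mitochondrial stress, was likewise lowest in WT replicate 1, at 34.1 CPM, with a log2 fold change of 0.08 (SE 0.11), or -0.05 without it. Atf3, a stress-induced factor, averaged 23.0 ± 3.27 CPM in KO and 25.0 ± 4.18 CPM in WT (SD, n = 3 each). Cebpg, the C/EBP partner of ATF4 at amino acid genes, averaged 68.7 ± 3.02 CPM in KO and 65.8 ± 0.596 CPM in WT. On the TPM scale the Cebpg means were 31.8 in KO and 32.8 in WT, so its direction depended on the unit.

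The 4 genes that act on eIF2 and on translation had log2 fold changes from -0.18 to -0.04, and their groups overlapped in every case. Eif2ak3 (PERK) spanned 115 to 135 CPM in KO and 105 to 153 CPM in WT, with its lowest value in WT replicate 1 and its highest in WT replicate 2. Eif2ak4 (GCN2) averaged 37.4 ± 1.01 CPM in KO and 40.0 ± 1.99 CPM in WT (SD, n = 3 each). Ppp1r15a, or GADD34, which directs a phosphatase to eIF2 and ends the response, averaged 37.9 ± 4.10 CPM in KO and 42.9 ± 5.64 CPM in WT. Eif4ebp1, a repressor of cap-dependent translation, averaged 77.3 ± 1.30 CPM in KO and 81.5 ± 3.46 CPM in WT. Its KO samples at 75.9 to 78.5 CPM reached down past and up over the lowest WT sample at 77.5 CPM.

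The 6 stress effector genes did not share a direction, with a median log2 fold change of -0.19, or -0.06 without WT replicate 1. Trib3, a pseudokinase that feeds back on ATF4, was at 31.9, 31.4 and 29.8 CPM in KO, against 23.6, 28.5 and 27.0 CPM in WT. All KO samples were above all WT samples, and the Trib3 log2 fold change was 0.23 (SE 0.08, 95% interval 0.05 to 0.42, edgeR adjusted p = 0.234). Leaving out WT replicate 1, where Trib3 was lowest, brought it to 0.16. Sesn2, a leucine sensor that restrains mTORC1, was at 95.2, 121 and 104 CPM in KO, against 118, 163 and 133 CPM in WT. KO replicate 2 lay above WT replicate 1, so the groups overlapped, and the Sesn2 log2 fold change was -0.37 (SE 0.13, edgeR adjusted p = 0.267), or -0.23 without WT replicate 2, the highest sample. Stc2, a secreted glycoprotein, was at 3.77, 4.33 and 4.07 CPM in KO, against 4.52, 5.73 and 4.93 CPM in WT. Its groups did not overlap, with a log2 fold change of -0.32 (SE 0.14, edgeR adjusted p = 0.347). Chac1 averaged 18.5 ± 0.526 CPM in KO and 17.9 ± 2.87 CPM in WT (SD, n = 3 each), and Ddit4, or REDD1, an mTORC1 inhibitor, averaged 212 ± 14.3 CPM in KO and 221 ± 23.0 CPM in WT. Vldlr, a lipoprotein receptor gene that ATF4 can induce, had 0.978, 1.08 and 0.952 CPM in KO, against 2.17, 1.04 and 0.904 CPM in WT. WT replicate 1 alone was high, and the Vldlr log2 fold change of -0.44 (SE 0.36) became 0.04 without it.

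The amino acid genes held the member of largest difference. Slc7a11, or xCT, the cystine importer that supplies cysteine for glutathione, was at 16.5, 7.71 and 8.06 CPM in KO, against 6.16, 5.16 and 5.38 CPM in WT. Each KO sample was above each WT sample, and the KO samples spanned 2.15-fold, with replicate 1 far above the others. The gene spans 49892526 to 50443614 on chromosome 3 (minus strand). The Slc7a11 log2 fold change was 0.96 (SE 0.30, edgeR adjusted p = 0.215), and DESeq2 gave 0.95 (adjusted p = 0.0198). Adjusted p ran from 0.0198 to 0.44 over the 17 alternatives. Without KO replicate 1 it was 0.50 (edgeR adjusted p = 0.192, with 0.641% of all tested genes called), and without KO replicate 1 and WT replicate 1 together 0.58 (edgeR adjusted p = 0.0288, with 4.21% called). Slc7a11 was highest in the library in which the macrophage and neutrophil markers given above were also highest, and in KO replicates 2 and 3 those sums were also above WT. The part of other cell types in this result was not tested. Slc7a11 counts held decimals in all 6 libraries and 5 other annotated genes overlap its locus, so its level is less certain than that of the members with whole counts.

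The arginine and lysine carriers lay slightly lower in KO samples without passing. Slc7a3 was at 27.5, 28.0 and 26.4 CPM in KO, against 32.1, 30.1 and 31.7 CPM in WT. The Slc7a3 log2 fold change was -0.20 (SE 0.06, 95% interval -0.33 to -0.06, edgeR adjusted p = 0.185), with adjusted p from 0.164 to 0.467 over the alternatives. Slc7a3 lies on chromosome X, and without KO replicate 1, the library with Y-linked mRNA, its log2 fold change was -0.20 (edgeR adjusted p = 0.299). Slc7a1, whose product is the more widely expressed carrier CAT1, was at 319, 323 and 323 CPM in KO, against 374, 349 and 342 CPM in WT. Its KO samples lay within 1.01-fold of each other and below all WT samples, with a log2 fold change of -0.14 (SE 0.05, edgeR adjusted p = 0.258). Asns, asparagine synthetase, averaged 117 ± 10.9 CPM in KO and 132 ± 12.9 CPM in WT (SD, n = 3 each), and its groups overlapped. Cth, which makes cysteine from cystathionine, averaged 13.1 ± 1.31 CPM in KO and 13.8 ± 1.34 CPM in WT.

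**Figure D3:**
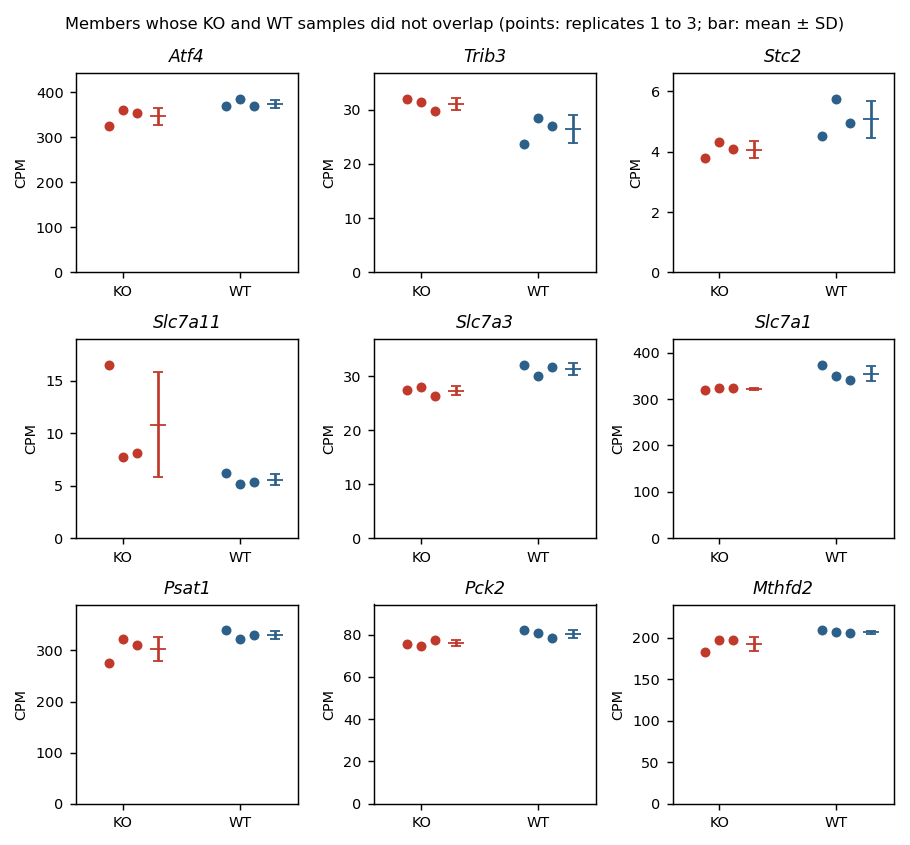
CPM of the 9 members whose KO and WT samples did not overlap, each point 1 sample (replicates 1 to 3 from left to right) and each bar the group mean ± SD (n = 3), on axes that start at 0. Slc7a11 is highest in KO replicate 1 (16.5 CPM), and the other panels show gaps that are small beside the level, such as Slc7a1 at 319 to 323 CPM in KO and 342 to 374 CPM in WT.

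The serine synthesis genes had small differences between the groups. Phgdh was at 374, 377 and 389 CPM in KO, against 375, 358 and 386 CPM in WT. The groups overlapped over most of their range, and the Phgdh log2 fold change was 0.03 (SE 0.05, 95% interval -0.09 to 0.14, edgeR adjusted p = 0.837). Psat1 was at 276, 322 and 310.3 CPM in KO, against 339, 323 and 329.8 CPM in WT. KO replicate 1 was the lowest, KO replicate 2 lay just under WT replicate 2, and on the TPM scale these last 2 changed places at 232 and 231 TPM. The Psat1 log2 fold change was -0.13 (SE 0.07, edgeR adjusted p = 0.414), or -0.06 without KO replicate 1. Psph, the last enzyme of the pathway, averaged 68.0 ± 3.81 CPM in KO and 70.8 ± 0.928 CPM in WT (SD, n = 3 each). Pck2, the mitochondrial enzyme that makes phosphoenolpyruvate from oxaloacetate, was at 75.6, 74.8 and 77.4 CPM in KO, against 81.9, 80.7 and 78.2 CPM in WT. Its groups did not overlap, with a log2 fold change of -0.08 (SE 0.05, 95% interval -0.19 to 0.03, edgeR adjusted p = 0.470). Pck2 lies on chromosome 14 at 55540266 to 55551242 (GENCODE M21, GRCm38), 546 kb from Myh7 and 758 kb from Slc7a8, genes that were called lower and higher in KO. It was 1 of 4 members within 1 Mb of a called gene. The others were Mthfd1 (446 kb from Fntb), Sesn2 (743 kb from Sytl1) and Cebpb (944 kb from Atp9a). The share of all tested genes within 1 Mb of a called gene was not computed, so these distances are a description only.

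All 6 folate genes had log2 fold changes below 0, from -0.19 to -0.04. The signs of Shmt2, Mthfd1 and Mthfd1l rested on replicate 1 of WT or of both groups. KO replicate 1 was the lowest of the 6 samples for 5 of the 6 folate genes, and WT replicate 1 the highest for 5. Mthfd1, the cytosolic trifunctional enzyme, was at 138, 159 and 156 CPM in KO, against 194, 148 and 156 CPM in WT. Its mitochondrial relative Mthfd1l, which releases formate, ran in parallel, at 140, 161 and 159 CPM in KO, against 194, 147 and 156 CPM in WT. For both, WT replicate 1 was high and the other samples of the 2 groups overlapped. Shmt1, the cytosolic hydroxymethyltransferase, was at 65.0, 81.5 and 80.9 CPM in KO, against 97.0, 74.3 and 88.5 CPM in WT. Shmt2 was at 387, 419.6 and 416 CPM in KO, against 465, 387 and 417 CPM in WT, and its log2 fold change was -0.05 (SE 0.07, 95% interval -0.23 to 0.12, edgeR adjusted p = 0.774). Without KO replicate 1 and WT replicate 1 together the log2 fold changes were 0.06 for Shmt2, 0.05 for Mthfd1 and 0.08 for Mthfd1l, so their sign turned. Those of Shmt1, Mthfd2 and Aldh1l2 were -0.00, -0.06 and -0.13, and the median of the 6 folate genes was 0.02. Without WT replicate 1 alone, Shmt2 was already at 0.02 and Mthfd1l at 0.01.

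Mthfd2, the mitochondrial methylenetetrahydrofolate dehydrogenase of proliferating cells, was the folate gene whose groups did not overlap. It was at 183, 198 and 197 CPM in KO, against 209, 207 and 206 CPM in WT. The WT samples were tightly grouped and KO replicate 1 was the lowest. The Mthfd2 log2 fold change was -0.11 (SE 0.05, 95% interval -0.22 to 0.01, edgeR adjusted p = 0.388), or -0.07 without KO replicate 1. Aldh1l2, which oxidises formyl-tetrahydrofolate in mitochondria, averaged 7.58 ± 0.934 CPM in KO and 7.77 ± 1.33 CPM in WT (SD, n = 3 each). The mitochondrial Shmt2 mRNA was well above its cytosolic counterpart Shmt1 in both groups, at 313 ± 13.0 against 62.8 ± 9.01 TPM in KO and 326 ± 33.4 against 72.5 ± 11.1 TPM in WT.

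Across roles, single libraries stood out more than the groups did. KO replicate 1 held the lowest value of the 6 samples for 16 of the 31 members, with a median deviation of -0.12 log2 CPM from the mean of the 6 samples. The medians were 0.01 and -0.01 in KO replicates 2 and 3, and 0.00, 0.08 and 0.02 in WT replicates 1 to 3. WT replicate 2 held the highest value for 14 members, among them all 4 genes of eIF2 and translation control. WT replicate 1 held the highest for 11, with 5 of the 6 folate genes among them, and the lowest for 7, with Ddit3, Atf5 and Cebpb among these. In WT replicate 1 the folate genes had a median deviation of 0.22 and the transcription factors of -0.18, so in this library these 2 sets of members lay on opposite sides of their means. The B cell markers were highest there as well, and their part in this pattern was not tested.

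**Figure D4:**
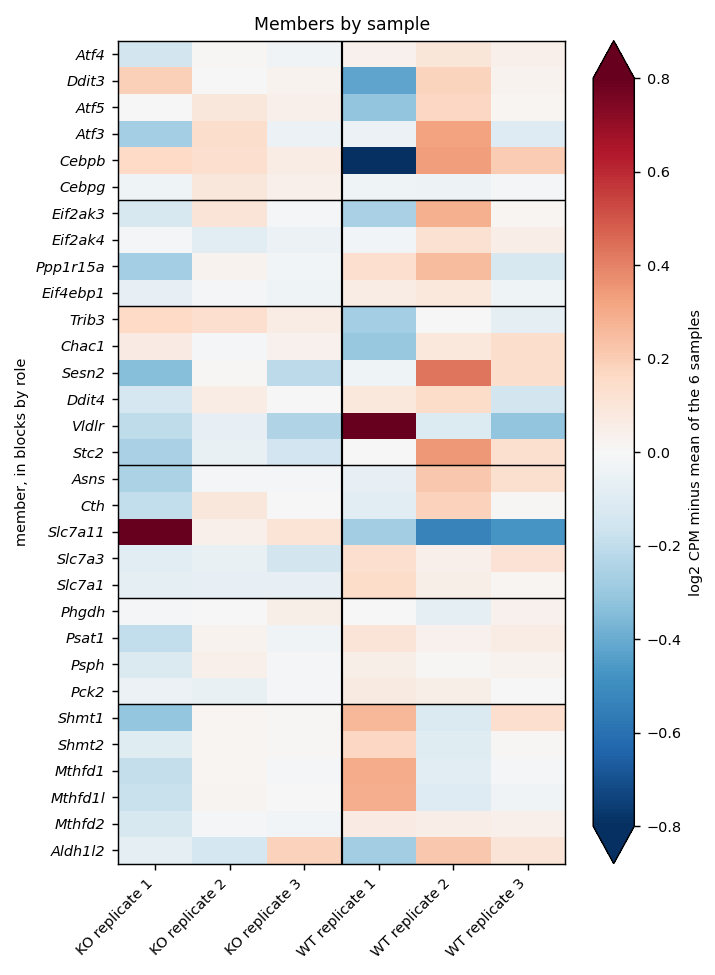
Log2 CPM of each member in each sample minus its mean over the 6 samples (colour, red above and blue below), with members in blocks by role and KO left of WT. KO replicate 1 is the lowest sample for 16 members, WT replicate 1 is high for the folate block, and Slc7a11 is high in KO replicate 1.

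**Figure D5:**
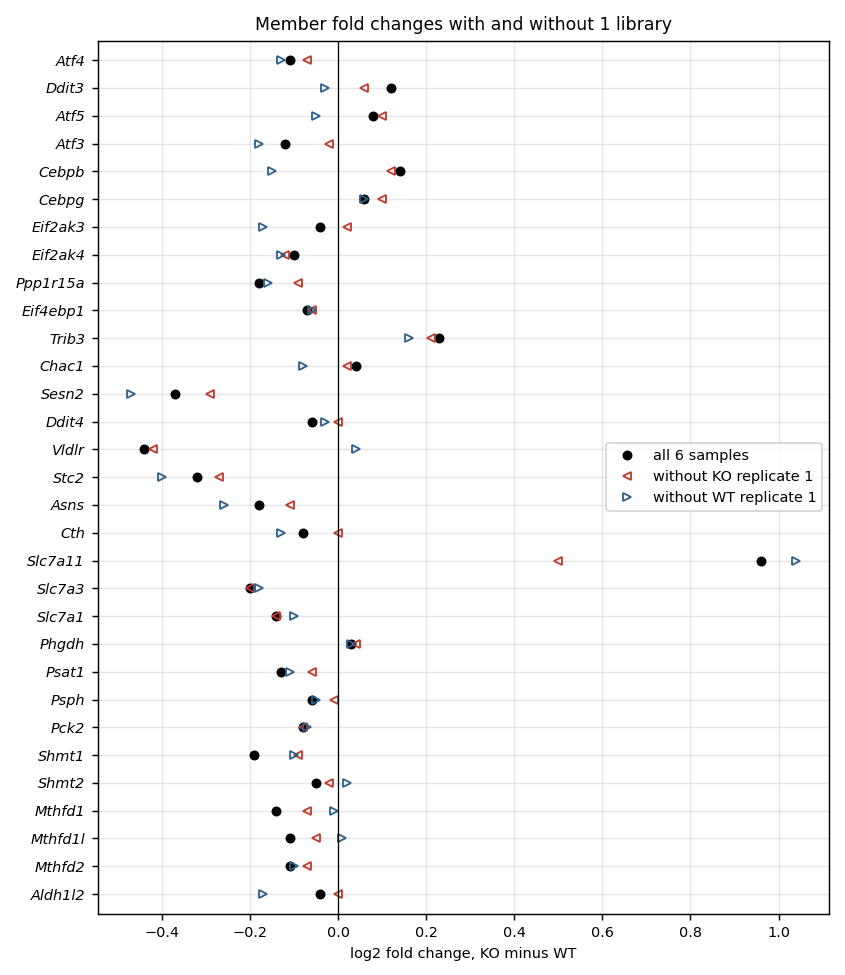
Log2 fold change of each member, KO minus WT, with all 6 samples (black), without KO replicate 1 (red) and without WT replicate 1 (blue). Cebpb moves to -0.15 without WT replicate 1 and Slc7a11 to 0.50 without KO replicate 1, and members such as Slc7a3 and Pck2 barely move.

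Other genes of the same pathways held no call either. Of 51 further genes of eIF2 control, the mitochondrial stress relay, other ATF4 targets and folate metabolism, 50 were found and 47 tested, and 0 were called higher and 0 lower by edgeR. At an unadjusted p under 0.05 there were 4 (8.51%), against 15.1% of all tested genes, and DESeq2 called 1, Fpgs. Their median log2 fold change was -0.04, with 30 below 0 and 17 above. Fpgs, which adds glutamates to folate and so keeps it in the cell, was at 31.5, 33.5 and 32.5 CPM in KO, against 37.1, 40.3 and 39.8 CPM in WT. Its groups did not overlap, and the Fpgs log2 fold change was -0.27 (SE 0.06, edgeR adjusted p = 0.104). Tyms, thymidylate synthase, was at 73.3, 79.9 and 76.1 CPM in KO, against 107, 79.2 and 89.8 CPM in WT. Its log2 fold change was -0.27 (SE 0.10, edgeR adjusted p = 0.295), or -0.15 without WT replicate 1, and it was highest there, as were Shmt1, Shmt2, Mthfd1 and Mthfd1l. Sfxn3, a mitochondrial serine carrier, was at 128, 117 and 115 CPM in KO, against 101, 114 and 108 CPM in WT, with a log2 fold change of 0.16 (SE 0.07, edgeR adjusted p = 0.305), or 0.07 without KO replicate 1 and WT replicate 1 together. Gdf15 and Fgf21, secreted products of mitochondrial stress in mammals, were too low to test, with 15 and 26 counts over all 6 libraries.

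In the deposited annotation all 6 folate genes carry the term one carbon pool by folate, and 6 members carry glycine, serine and threonine metabolism, terms that follow from how the members were chosen. The members lie on 15 chromosomes, with 5 on chromosome 10. Decimal counts in at least 1 library were found for 11 members, and 20 had whole counts throughout. Among the 11 are Ddit3, which overlaps the methionyl-tRNA synthetase gene Mars on the opposite strand, Atf5, Psph, Pck2, Shmt1, Slc7a1 and Slc7a11, and whether the counting used strand is not given in the sources used here.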

How the data were processed

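Bulk mRNA libraries of 3 KO and 3 WT iTreg samples were analysed. For each sample the authors deposited estimated counts and, in a second table, TPM values for each gene, per the file headers. FastQC and HISAT2 are named in the submitters' processing notes, with the counting program, genome build and annotation not given in the sources used here. Expected counts were rounded to whole numbers, genes were kept by filterByExpr (12768 of 21899), and libraries were scaled by TMM (factors 0.988 to 1.01). KO was compared with WT over all genes with the quasi-likelihood F test (two-sided) in edgeR 4.0.16 and R 4.3.3, with genotype as the single term, robust dispersion, Benjamini-Hochberg adjustment and a threshold of 0.05. Log2 fold changes are KO minus WT. For symbols with more than 1 identifier the one with more summed counts was used. Positions come from GENCODE M21 (GRCm38), which need not be the authors' annotation. The fits were first tested on data made with known changes. There edgeR recovered 8% of 1.2-fold and 78% of 1.5-fold changes, so most differences of 1.2-fold would be missed. False calls were 16 of 144 with edgeR and 46 of 190 with DESeq2. With nothing changed, edgeR made 1 call and DESeq2 20. Alternatives used DESeq2 1.42.0, other scalings and filters, limma 3.58.1 on log2(TPM + 1) and log2(TPM + 0.1), single libraries left out, and the replicate number as a block. Named in full were Atf4, members past the threshold or without overlap, the 4 members of highest TPM, and the other pathway genes of smallest p, of which 1 is not reported here. Sesn2, Cebpb, Ddit3, Vldlr, Shmt1, Mthfd1 and Mthfd1l were given in full after their values were seen. The members and lists were chosen with earlier results of these data known.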

Additional observations from a re-analysis of the deposited data

How the results depend on the processing

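Of the 31 members, 16 kept 1 sign under all 17 alternatives and 15 turned in at least 1, with 30 turned values in all. With single libraries left out, the median member log2 fold change ran from -0.11 to -0.05, and the counts over all genes from 3 to 56 called higher (58 with all samples) and from 1 to 40 called lower (28). DESeq2 called 366 genes higher and 161 lower, and leaving out KO replicate 1 and WT replicate 1 together gave 311 and 227. Each of these 2 settings called 1 member higher (Slc7a11) and 1 other pathway gene lower (Fpgs). Without the low-count filter 92 were higher, with KO replicates 2 and 3 summed 6 were higher and 2 lower, with limma on log2(TPM + 1) 33 were higher, and on the same scale with no filter 4 were higher and 1 lower. The causes of these shifts were not tested.

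With single libraries left out, log2 fold changes crossed 0 for Ddit3 (-0.03 to 0.25), Atf5 (-0.05 to 0.19), Atf3 (-0.22 to 0.03), Cebpb (-0.15 to 0.36), Eif2ak3 (-0.17 to 0.11), Chac1 (-0.08 to 0.12), Ddit4 (-0.14 to 0.00), Vldlr (-0.67 to 0.04), Cth (-0.14 to 0.01), Phgdh (-0.00 to 0.05), Shmt2 (-0.11 to 0.02), Mthfd1l (-0.19 to 0.01) and Aldh1l2 (-0.17 to 0.07), and that of Mthfd1 ran from -0.21 to -0.01. Without KO replicate 1 and WT replicate 1 together, those that turned were Ddit3 (-0.09), Atf5 (-0.02), Cebpb (-0.17), Chac1 (-0.10), Ddit4 (0.02), Vldlr (0.05), Shmt2 (0.06), Mthfd1 (0.05) and Mthfd1l (0.08). On each of the 3 TPM settings Cebpg turned to -0.04.

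Whether the replicate numbers in the labels pair the samples was not settled. Deviations of samples with the same number correlated at 0.184, 0.078 and 0.0841, and those of other pairs at -0.145 to 0.112. KO replicate 3 correlated best with WT replicate 2, at 0.112. The deviations are taken from the group means, so these correlations depend on each other and cannot decide it. With the replicate block, 134 genes were called higher and 43 lower, and 1 member lower, Sesn2 at -0.36 (adjusted p = 0.0427, with a range of 0.0427 to 0.516 over the alternatives). With 291 counts over the 6 libraries, Vldlr was the member that depth limited most.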
